A study of Mus musculus with 13 samples.

Results

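The genes described here are the 7 CDK inhibitor genes of the mouse and Rab44, the gene that follows Cdkn1a at the p21 locus. They were chosen by name, as the probe sets that the array annotation gives to Cdkn1a, Cdkn1b, Cdkn1c, Cdkn2a, Cdkn2b, Cdkn2c, Cdkn2d and Rab44, with the probe set of highest mean used for each gene. They are 8 of the 19939 genes with a probe set, and all 8 passed the filter on dim genes that left 16722 genes for testing. Cdkn1a is measured by probe set 10443463, which the annotation shares with a second symbol, 4930567H12Rik. That second gene has no probe set of its own, so any signal from it could not be separated from that of Cdkn1a. Whether the probe set reads it was not tested. In this text a level is a log2 intensity, so a difference of 1 is a doubling, and levels of different genes are not compared because each probe set has its own brightness.

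Expression was measured in samples named as enterocytes, the absorptive cells of the gut lining. Among markers of other cell types, the lymphocyte markers Cd4 (3.68 to 4.57), Cd79a (3.30 to 4.75) and Ms4a1 (3.06 to 4.96) were dim. So was the endothelial marker Kdr (3.56 to 4.14). Some others were bright, such as the goblet cell marker Muc2 (11.04 to 13.19) and the lymphocyte marker Cd3g (7.37 to 10.65). The samples are thus not read as absorptive cells alone. The mice were on a 129/SVJ background and carried a gut-specific knockout of casein kinase I alpha (CKIα, CKIalpha in the labels). The gene of this kinase, Csnk1a1, was knocked out on one copy in the heterozygous mice (Het) and on both in the homozygous ones (KO), and these mice were crossed with p53 or p21 knockout mice. The 6 groups were CKIα KO/p53 KO, CKIα Het/p53 KO, CKIα KO/p21 KO, CKIα Het/p21 KO, CKIα KO and CKIα Het, with 2 arrays each that the labels call biological replicates. Every group therefore lacked at least one copy of Csnk1a1 in the gut, and no fully wild-type mice are among them. The promoter that drove the gut deletion, the age of the mice and the pooling of animals are not given in the sources used here. A further array, whose title and genotype label disagree, was put in no group. The labels' p21 knockout was visible at Cdkn1a, whereas the other genotypes could not be checked: Csnk1a1 lay between 10.44 and 10.80 on the 12 arrays, the part of the gene its probes cover is not given, and no probe set carries the symbol of the p53 gene alone. Group names are thus those of the labels.

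Cyclin-dependent kinases (CDKs) drive cells through the division cycle, and CDK inhibitors hold them back. The Cip/Kip inhibitors p21 (Cdkn1a), p27 (Cdkn1b) and p57 (Cdkn1c) bind complexes of cyclins with CDKs, and the INK4 inhibitors p16 (Cdkn2a, which also encodes the p53 activator ARF), p15 (Cdkn2b), p18 (Cdkn2c) and p19 (Cdkn2d) bind CDK4 and CDK6. p53 switches on Cdkn1a after DNA damage, and in the intestine p21 marks cells that leave the crypt and stop dividing.

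Stretches of the Cdkn1a promoter are shown because Cdkn1a is the p53 target of this family. They are the 250 bases before each of its 2 start sites in the RefSeq promoter table (build GRCm38.p6), on the plus strand at chr17:29090729-29090978 and chr17:29093519-29093768. In the first, capitals mark a match to the p53 response element. In the second, capitals mark the matches to GGGCGG (the GC box) and TATAA.
Cdkn1a upstream start: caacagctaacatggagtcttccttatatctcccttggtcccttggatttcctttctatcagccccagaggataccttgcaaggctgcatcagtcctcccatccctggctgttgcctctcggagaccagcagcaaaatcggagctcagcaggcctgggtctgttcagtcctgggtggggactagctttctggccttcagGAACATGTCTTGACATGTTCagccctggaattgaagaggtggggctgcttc
Cdkn1a second start: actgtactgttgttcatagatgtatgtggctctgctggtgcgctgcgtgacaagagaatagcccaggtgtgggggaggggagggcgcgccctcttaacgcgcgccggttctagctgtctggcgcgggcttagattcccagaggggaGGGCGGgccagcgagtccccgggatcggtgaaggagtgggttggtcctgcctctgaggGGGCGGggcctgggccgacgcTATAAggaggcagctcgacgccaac
The p53 element was searched as adjacent 10-base repeats of its consensus with at most 1 base off, a pattern that reads the same on both strands. The match in the first stretch spans bases 51 to 32 before the start and has 1 base off the consensus. Such a match was present in 25 of the 32851 windows of the table, or 0.0761%. A search for exact repeats separated by 0 to 13 bases also matched the first stretch, through one repeat of the same element and another before it, and matched 0.0639% of all windows. Promoter windows were found for 6 of the 8 genes, 9 windows in all, and the other 8 windows held no p53 match. GGGCGG, read on both strands, occurred in 32.7% of all windows and TATAA in 22.8%. A match describes the letters and does not show that a factor bound there. Rab44 and Cdkn1c had no window.

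Cdkn1a was high wherever p21 was intact and low in every p21 knockout, in both CKIα genotypes. Its levels were 8.68 and 8.84 on the CKIα KO/p53 KO arrays and 9.64 and 9.49 on the CKIα Het/p53 KO arrays. They were 5.62 and 5.86 on the CKIα KO/p21 KO arrays and 5.62 and 5.52 on the CKIα Het/p21 KO arrays. They were 9.28 and 10.30 on the CKIα KO arrays and 9.12 and 9.35 on the CKIα Het arrays. The 4 p21 knockout arrays, between 5.52 and 5.86, did not overlap the other 8, between 8.68 and 10.30.

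**Figure D1:**
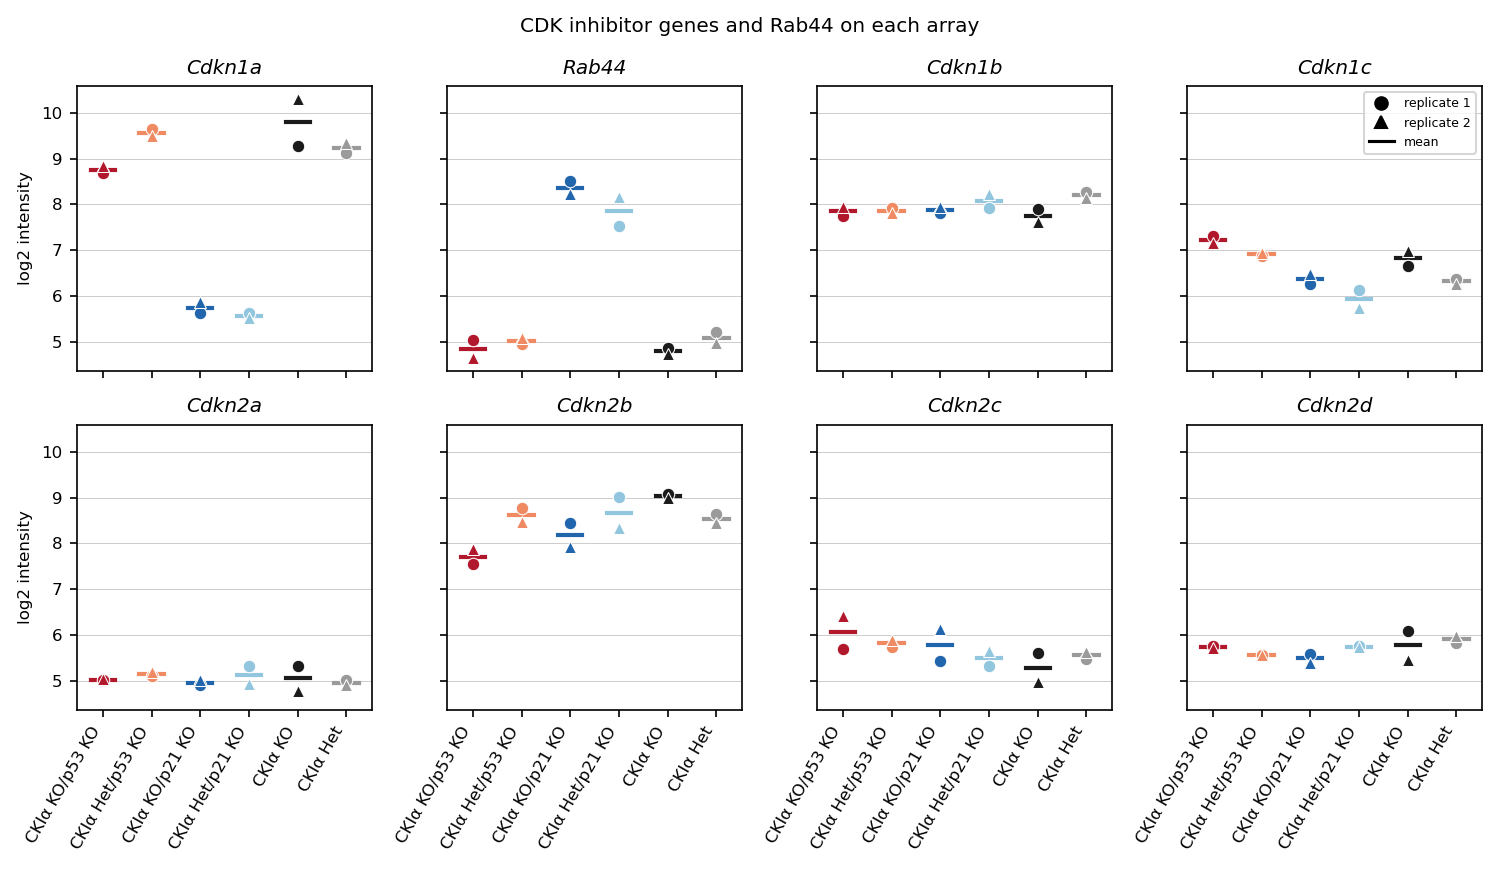
Log2 intensity of each of the 8 genes (vertical axis) on every array of the 6 genotype groups (horizontal axis); circles are replicate 1, triangles replicate 2 and bars the mean of the 2. Cdkn1a is low and Rab44 high on the 4 p21 knockout arrays, Cdkn2b is lowest on the 2 CKIα KO/p53 KO arrays, and Cdkn1b lies between 7.62 and 8.26 throughout.

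The p21 knockout was compared with intact p21 in both CKIα genotypes, with limma fitted to all 12 arrays and Benjamini-Hochberg adjustment over all tested genes. Cdkn1a was lower by a log2 of -4.05 ± 0.27 (SE) in CKIα KO/p21 KO than in CKIα KO mice, a 16.6-fold difference (adjusted p = 0.000404). It was lower by a log2 of -3.66 ± 0.27 in CKIα Het/p21 KO than in CKIα Het mice, a 12.7-fold difference (adjusted p = 0.00207). The residual level on the p21 knockout arrays is not a measure of transcript, because a probe set also reads background and this one may read the second annotated gene.

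Rab44 encodes a large Rab-type GTPase, and it moved the other way. Its levels were 8.51 and 8.23 on the CKIα KO/p21 KO arrays, against 4.86 and 4.73 on the CKIα KO arrays. They were 7.53 and 8.17 on the CKIα Het/p21 KO arrays, against 5.21 and 4.97 on the CKIα Het arrays. The CKIα KO/p53 KO arrays had 5.03 and 4.65, and the CKIα Het/p53 KO arrays 4.96 and 5.09. All 4 p21 knockout arrays, from 7.53 to 8.51, thus lay above all 8 others, from 4.65 to 5.21. Rab44 rose 11.9-fold in CKIα KO/p21 KO against CKIα KO mice (log2 difference 3.57 ± 0.22, adjusted p = 0.000374). It rose 6.77-fold in CKIα Het/p21 KO against CKIα Het mice (log2 difference 2.76 ± 0.22, adjusted p = 0.00211).

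Few other genes passed the same test. Between CKIα Het/p21 KO and CKIα Het mice, 0.012% of the tested genes were called at an adjusted p under 0.05, and these 2 genes were Cdkn1a and Rab44. Without the CKIα Het replicate 2 array neither passed (both adjusted p = 0.0586), while the fitted differences kept their signs. Between CKIα KO/p21 KO and CKIα KO mice, 0.0419% were called, which is 7 genes, and Rab44 and Cdkn1a had the 2 smallest p-values. Both calls stood in all 19 alternative fits. The remaining 5 called there were Cfi, Stox2, Gm10044, Ceacam10 and Abcb1b.

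The genes around Rab44 were looked at in the same comparisons. In RefSeq order the measured neighbours are Bnip5, Pxt1, Kctd20, Stk38 and Srsf3 on one side of Cdkn1a and Rab44, Cpne5, Ppil1, BC004004 and Pi16 on the other, with no unmeasured RefSeq gene between Cdkn1a and Rab44. None of the 9 neighbours other than Rab44 was called in either p21 comparison by limma. Only 0.0419% of all tested genes were called in CKIα KO/p21 KO against CKIα KO mice and 0.012% in CKIα Het/p21 KO against CKIα Het mice. The lack of calls thus says little about these neighbours. In CKIα KO/p21 KO against CKIα KO mice their differences ran from -0.33 (Stk38, a kinase) to 0.90 (Srsf3, a splicing factor), with a smallest adjusted p of 0.170 and 2 of 9 at an unadjusted p under 0.05. In CKIα Het/p21 KO against CKIα Het mice they ran from -0.41 (BC004004) to 0.66 (Bnip5), with a smallest adjusted p of 0.940 and 1 of 9 at an unadjusted p under 0.05. Srsf3, the nearest measured gene on the other side, has 3 probe sets, and their differences were 0.77, 0.91 and 0.90 in the first comparison and 0.07, 0.04 and 0.10 in the second.

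**Figure D2:**
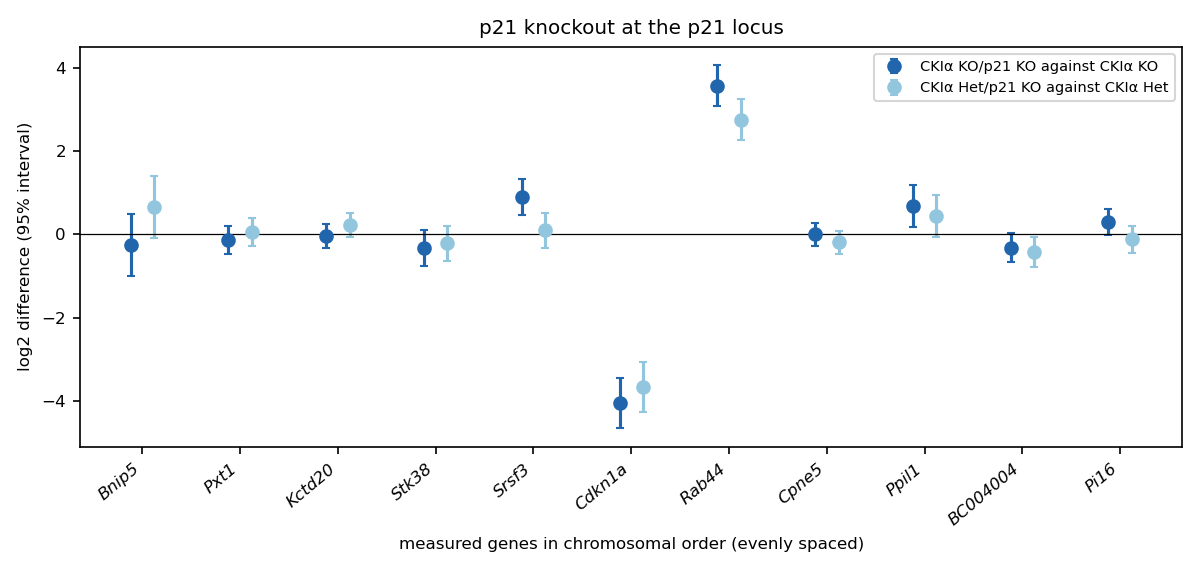
Fitted log2 difference with its 95% interval for Cdkn1a and the 5 nearest measured genes on each side, in chromosomal order and evenly spaced; dark points compare CKIα KO/p21 KO with CKIα KO, pale points CKIα Het/p21 KO with CKIα Het. Cdkn1a lies at -4.05 and -3.66 and Rab44 at 3.57 and 2.76, and the other 9 genes lie between -0.41 and 0.90.

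Rab44 is best known from immune cells, so lymphocyte markers are given beside it. The mean level of 9 lymphocyte markers was 6.12 to 7.11 on the CKIα KO/p21 KO arrays against 7.25 to 7.70 on the CKIα KO arrays, and 7.62 to 8.14 on the CKIα Het/p21 KO arrays against 7.61 to 7.65 on the CKIα Het arrays. Between p21 knockout and p21-intact arrays, the lymphocyte marker levels were lower in CKIα KO mice and overlapped in CKIα Het mice. The 9 myeloid markers averaged 5.05 on both CKIα KO/p21 KO arrays, against 4.96 to 5.01 on the CKIα KO arrays. On the CKIα Het/p21 KO arrays they averaged 5.08 to 5.41, against 5.14 to 5.27 on the CKIα Het arrays. Fibroblast and smooth muscle markers averaged 5.55 to 6.48 on the CKIα Het/p21 KO arrays against 5.10 to 5.43 on the CKIα Het arrays, and 4.81 to 5.75 on the CKIα KO/p21 KO arrays against 5.24 to 5.36 on the CKIα KO arrays. The part of any of these cell types in the Rab44 difference was not tested. In bulk samples such as these, fewer cells of a type and less RNA per cell cannot be told apart.

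Where p53 and p21 were present, Cdkn1a did not pass the test between CKIα KO and CKIα Het mice. The difference of CKIα KO from CKIα Het was 0.56 ± 0.27, with a 95% interval from -0.05 to 1.17 (adjusted p = 0.596). One CKIα KO array, at 9.28, lay within the CKIα Het range of 9.12 to 9.35 and the other lay above it at 10.30. Without that second array the difference was 0.05, and without the first it was 1.07. In this comparison 0.0239% of the tested genes were called, none of them among the 8. Cdkn1b, at 7.90 and 7.62 in CKIα KO and 8.26 and 8.15 in CKIα Het mice, differed by -0.45 ± 0.16 (adjusted p = 0.420). A second, dimmer probe set of Cdkn1b differed by -0.38 there (adjusted p = 0.584, with all probe sets fitted). Cdkn1c differed by 0.51 ± 0.17 (adjusted p = 0.383), and the other 5 genes by -0.29 to 0.49.

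With p21 knocked out, none of the 8 genes was called between the CKIα genotypes. Of the 16722 genes tested between CKIα KO/p21 KO and CKIα Het/p21 KO mice, 1.97% were called. Cdkn1a, whose gene is knocked out here, differed by 0.17 ± 0.27 (adjusted p = 0.785). Rab44 differed by 0.52 ± 0.22 (adjusted p = 0.198) and Cdkn1c by 0.44 ± 0.17 (adjusted p = 0.160), and the other 5 genes by -0.49 to 0.30. The effect of CKIα loss on Rab44 was larger with p21 knocked out than with it present by a log2 of 0.81 ± 0.31 (adjusted p = 0.615), which did not pass. That test of the difference between effects called 0% of all genes with limma, where 1359 had an unadjusted p under 0.05. For Cdkn1a the same test gave -0.39 ± 0.39 (adjusted p = 0.818), and for Cdkn2b -0.98 ± 0.36 (adjusted p = 0.615), and the other 5 genes lay between -0.27 and 0.56.

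With p53 knocked out, CKIα loss went with lower Cdkn2b. Cdkn2b encodes p15, an inhibitor of CDK4 and CDK6. Its levels were 7.54 and 7.88 on the CKIα KO/p53 KO arrays, against 8.78 and 8.47 on the CKIα Het/p53 KO arrays. They were 8.44 and 7.93 on the CKIα KO/p21 KO arrays, 9.02 and 8.33 on the CKIα Het/p21 KO arrays, 9.08 and 8.99 on the CKIα KO arrays and 8.65 and 8.44 on the CKIα Het arrays. The CKIα KO/p53 KO arrays were the lowest of the 12. Cdkn2b fell by 0.91 ± 0.25 on the log2 scale in CKIα KO/p53 KO against CKIα Het/p53 KO mice, a 1.89-fold difference (adjusted p = 0.0345). It was the 1 gene of the 8 called there, beside 17.8% of all tested genes. The call was lost when any of the 4 arrays compared or either CKIα Het array was left out, with adjusted p up to 0.171, and when all probe sets were fitted (adjusted p = 0.0558).

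Cdkn1a was also lower in CKIα KO/p53 KO than in CKIα Het/p53 KO mice, but it missed the threshold. The arrays of these groups did not overlap, and the share of all genes with such an order was not counted. The difference was -0.81 ± 0.27, with a 95% interval from -1.42 to -0.20 (adjusted p = 0.0666). The other 6 genes differed by -0.18 to 0.32 (smallest adjusted p = 0.217). The effect of CKIα loss on Cdkn1a differed between p53 knockout and p53-intact mice by -1.36 ± 0.39 (adjusted p = 0.241), and the effect on Cdkn2b by -1.41 ± 0.36 (adjusted p = 0.236). Neither passed, in a test that called 0.0179% of all genes.

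Within CKIα KO mice, those lacking p53 were compared with those having it. Cdkn2b was at 7.54 and 7.88 in CKIα KO/p53 KO and 9.08 and 8.99 in CKIα KO mice, a log2 difference of -1.32 ± 0.25 (adjusted p = 0.0516). With the replicate number, which parts the sexes, as a block in limma it passed (adjusted p = 0.0394). It also passed in limma with a further quantile normalization (adjusted p = 0.0498) and with robust moderation (adjusted p = 0.0467). Cdkn1a differed by -1.03 ± 0.27 (adjusted p = 0.0778), which without CKIα KO replicate 2 was -0.52 and without replicate 1 was -1.55. Cdkn2c, encoding p18, differed by 0.77 ± 0.30 (adjusted p = 0.174) and Cdkn1c by 0.41 ± 0.17 (adjusted p = 0.201), and the other 4 genes by -0.04 to 0.10. In the limma fit without any of these alternative settings none of the 8 was called, beside 0.694% of all genes. Within CKIα Het mice, loss of p53 called 0% of genes with limma, where 941 had an unadjusted p under 0.05. Cdkn1a differed there by 0.33 ± 0.27 (adjusted p = 0.922) and Cdkn1c by 0.60 ± 0.17 (adjusted p = 0.791), and the other 6 genes by -0.34 to 0.26.

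**Figure D3:**
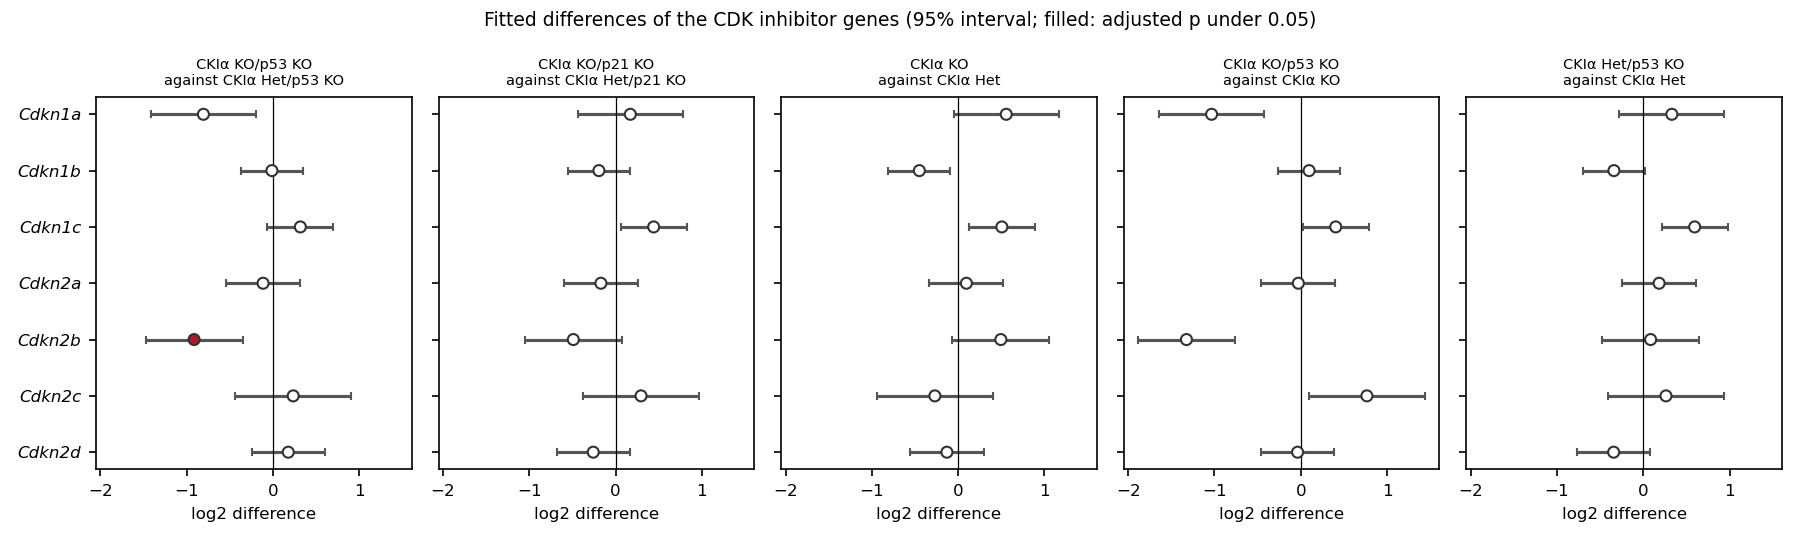
Fitted log2 differences (horizontal axis) with 95% intervals for the 7 CDK inhibitor genes in 5 comparisons, one panel each; a filled point has an adjusted p under 0.05. Cdkn2b in CKIα KO/p53 KO against CKIα Het/p53 KO mice is the 1 filled point.

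The group means of Cdkn1a ran, from low to high, through CKIα Het/p21 KO (5.57), CKIα KO/p21 KO (5.74), CKIα KO/p53 KO (8.76), CKIα Het (9.23), CKIα Het/p53 KO (9.57) and CKIα KO (9.79). The 2 arrays of the CKIα KO group enclosed those of CKIα Het/p53 KO, and the 2 p21 knockout groups met at 5.62.

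Cdkn1c, encoding p57, spread over a range of 1.57, with its highest levels on the CKIα KO/p53 KO arrays. Its levels were 7.30 and 7.15 on the CKIα KO/p53 KO arrays, 6.88 and 6.94 on the CKIα Het/p53 KO arrays, 6.27 and 6.47 on the CKIα KO/p21 KO arrays, 6.12 and 5.74 on the CKIα Het/p21 KO arrays, 6.66 and 6.98 on the CKIα KO arrays and 6.37 and 6.27 on the CKIα Het arrays. In each of the 3 CKIα comparisons both KO arrays lay above both Het arrays, with p21 knocked out by as little as 6.27 against 6.12. None of these differences was called, and the share of all genes with such an order was not counted. Relative to intact p21, Cdkn1c differed by -0.45 ± 0.17 in CKIα KO/p21 KO against CKIα KO mice (adjusted p = 0.356) and by -0.39 ± 0.17 in CKIα Het/p21 KO against CKIα Het mice (adjusted p = 0.988). Cdkn2b differed by -0.85 ± 0.25 in CKIα KO/p21 KO against CKIα KO mice (adjusted p = 0.264).

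The remaining inhibitors had no call in any comparison. Cdkn1b, encoding p27, spanned 7.62 to 8.26, Cdkn2a 4.78 to 5.33 and Cdkn2d 5.38 to 6.08 over the 12 arrays. Cdkn2a thus lay near the array medians of 4.96 to 5.12. Its signal may be background, so its lack of a call is not read as steady expression. Cdkn2c spanned 4.98 to 6.41, with replicates as far apart as 5.69 and 6.41 on the CKIα KO/p53 KO arrays. In the p21 comparisons the other 4 genes differed by -0.29 to 0.50 in CKIα KO/p21 KO against CKIα KO mice, and the other 5 genes by -0.16 to 0.17 in CKIα Het/p21 KO against CKIα Het mice.

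Other genes activated by p53 were set beside Cdkn1a, as 28 tested genes of a list that leaves Cdkn1a out. In CKIα KO/p21 KO against CKIα Het/p21 KO mice, 14 were higher and 0 lower (50% called, beside 1.97% of all tested genes), with a median difference of 0.91, against -0.01 for all tested genes. They included Eda2r, a receptor of the TNF receptor family (3.74 ± 0.38), Psrc1, a spindle protein (3.07 ± 0.32), Zmat3, an RNA-binding protein (2.21 ± 0.24), and Ccng1, cyclin G1 (2.09 ± 0.23), each with an adjusted p of 0.00929. That count was 0 without CKIα Het/p21 KO replicate 2, 3 without its replicate 1 and 3 without CKIα KO/p21 KO replicate 2, and 6 without any 1 array of the CKIα KO/p53 KO, CKIα Het/p53 KO or CKIα Het groups. In CKIα KO/p53 KO against CKIα Het/p53 KO mice 2 were higher, the kinase Plk2 (2.09 ± 0.48, adjusted p = 0.0199) and the mTOR inhibitor Ddit4 (1.20 ± 0.31, adjusted p = 0.0280), and 2 lower, Gadd45a (-0.91 ± 0.19, adjusted p = 0.0152) and Sesn1 (-1.76 ± 0.41, adjusted p = 0.0213). That share of 14.3% was below the 17.8% of all tested genes. In CKIα KO against CKIα Het mice 0 of the 28 were called with limma, beside 0.0239% of all tested genes, with a median of 0.46. The comparison of CKIα KO/p53 KO with CKIα KO mice called 2 of the 28 (7.14%, beside 0.694% of all tested genes). In CKIα KO/p53 KO against CKIα KO mice Ccng1 (-2.05 ± 0.23, adjusted p = 0.0137) and Eda2r (-2.26 ± 0.38, adjusted p = 0.0458) fell and 0 rose, with a median of -0.66; the number that fell was 10 without either one of the CKIα KO/p21 KO arrays and 0 without CKIα KO/p53 KO replicate 2.

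Measured from the mean of the CKIα Het arrays, the list median and Cdkn1a did not always move together. The median was -0.22 on both CKIα KO/p53 KO arrays, where Cdkn1a was at -0.56 and -0.40. On the CKIα Het/p53 KO arrays the median was -0.05 and -0.01 and Cdkn1a 0.41 and 0.25. On the CKIα KO/p21 KO arrays the median was 0.77 and 0.95 while Cdkn1a, knocked out, was at -3.61 and -3.37. On the CKIα KO arrays the median was 0.27 and 0.56 and Cdkn1a 0.05 and 1.07. In that group the array with the higher median also had more Cdkn1a. In each of the other groups with p21 intact, the array with the higher median had less Cdkn1a, though their medians differed little.

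**Figure D4:**
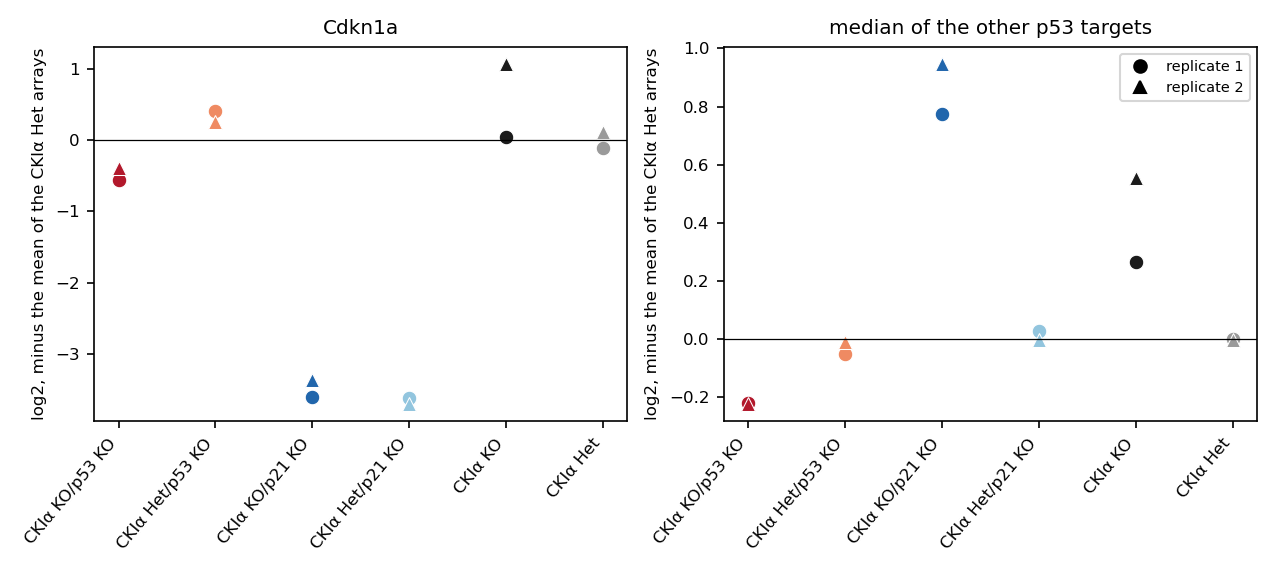
Cdkn1a (left) and the median of 28 other p53 targets (right) on each array, as log2 difference from the mean of the CKIα Het arrays (vertical axes differ); circles are replicate 1 and triangles replicate 2. The median is highest, at 0.77 and 0.95, on the CKIα KO/p21 KO arrays and lowest, at -0.22, on the CKIα KO/p53 KO arrays.

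The kinases that these inhibitors act on, and the cyclins, were read from a list. Of 15 tested CDKs, cyclins and partners, 7 were higher and 0 lower in CKIα KO/p53 KO against CKIα Het/p53 KO mice (46.7% called, beside 17.8% of all tested genes), with a median of 0.93 against -0.06 for all tested genes. Ccnd2, cyclin D2, rose by 2.05 ± 0.32 (adjusted p = 0.00772), Cdk6 by 0.93 ± 0.20 (adjusted p = 0.0156), Cdk4 by 0.96 ± 0.23 (adjusted p = 0.0222) and Cdc25c, a phosphatase that activates CDK1, by 1.30 ± 0.32 (adjusted p = 0.0238). Each of the 4 arrays compared, when left out, reduced the count to 0 or 1. Cdkn2b, whose protein binds CDK4 and CDK6, fell in the same comparison.

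Among 13 pocket proteins and E2F factors in the same CKIα KO/p53 KO against CKIα Het/p53 KO comparison, E2f3 (0.94 ± 0.14, adjusted p = 0.00763) and E2f6 (1.20 ± 0.22, adjusted p = 0.0104) were higher and Rb1, the retinoblastoma protein that CDK4 and CDK6 inactivate, was lower (-1.36 ± 0.22, adjusted p = 0.00783). These 3 are 23.1% of that list, near the 17.8% of all tested genes. Among 15 genes for the turnover of p21, p27 and p57, 4 were higher and 0 lower (26.7% called, beside 17.8% of all tested genes). In so short a list that share is not read as set apart from that of all tested genes. The 4 included Cks1b, a partner in p27 degradation (1.58 ± 0.26, adjusted p = 0.00813), and the kinase Akt1 (1.40 ± 0.25, adjusted p = 0.00971). The others were Dtl, a ubiquitin ligase subunit that marks p21 (1.53 ± 0.34, adjusted p = 0.0183), and the signalosome subunit Cops5 (0.90 ± 0.23, adjusted p = 0.0281). The counts of both lists, and of the other pathway lists in this comparison, were 0 without CKIα Het/p53 KO replicate 1. The 18 regulators of the INK4 and ARF genes included 3 that were higher, Npm1, which binds ARF (1.92 ± 0.22, adjusted p = 0.00507), Mtap, the gene beside Cdkn2a (1.32 ± 0.22, adjusted p = 0.00845), and the transcription factor Ets2 (0.89 ± 0.27, adjusted p = 0.0478), and 0 lower, a share of 16.7% that is no higher than the 17.8% of all tested genes. Npm1 (1.10 ± 0.22, adjusted p = 0.0467) and Mtap (1.05 ± 0.22, adjusted p = 0.0481) were also higher in CKIα KO/p21 KO against CKIα Het/p21 KO mice, a count of 2 that was 0 in 9 of the 12 fits without 1 array. These 2 genes are 11.1% of the list, beside 1.97% of all tested genes in that comparison. With the replicate number as a block the count was 1, as Mtap then had an adjusted p of 0.0508.

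Of 21 other regulators of the Cdkn1a promoter, 2 were higher and 4 lower in CKIα KO/p53 KO against CKIα Het/p53 KO mice (28.6% called, beside 17.8% of all tested genes). With so few genes this share is not read as set apart from that of all tested genes. Myc, which represses Cdkn1a, rose by 2.52 ± 0.55 (adjusted p = 0.0171) and Brca1 by 1.40 ± 0.26 (adjusted p = 0.0113). The glucocorticoid receptor Nr3c1 differed by -0.76 ± 0.15 (adjusted p = 0.0123) and the vitamin D receptor Vdr by -1.26 ± 0.30 (adjusted p = 0.0231). None of the 21 was called in the p21 comparisons or in CKIα KO against CKIα Het mice. Few genes of any kind were: 0.0419% of all tested genes in CKIα KO/p21 KO against CKIα KO, 0.012% in CKIα Het/p21 KO against CKIα Het and 0.0239% in CKIα KO against CKIα Het mice.

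Markers of crypt, absorptive and secretory cells are given beside these differences. The mean level of 7 proliferating crypt markers was 7.70 to 8.24 on the CKIα KO/p53 KO arrays against 7.20 to 7.31 on the CKIα Het/p53 KO arrays, and 7.64 to 8.14 on the CKIα KO/p21 KO arrays against 7.04 to 7.50 on the CKIα Het/p21 KO arrays. In CKIα KO against CKIα Het mice it was 7.18 to 7.24 against 7.40 to 7.48. The 14 absorptive enterocyte markers averaged 11.50 to 11.68 on the CKIα KO/p53 KO arrays and 12.42 to 12.47 on the CKIα Het/p53 KO arrays, and between 11.46 and 12.47 on all 12 arrays. In CKIα KO/p53 KO against CKIα Het/p53 KO mice 5 of 6 goblet cell markers were called lower (83.3% called, beside 17.8% of all tested genes). Their mean levels were 8.78 to 9.23 on the CKIα KO/p53 KO arrays against 10.15 to 10.24 on the CKIα Het/p53 KO arrays. Their median difference was -1.09. In the same comparison 6 of 9 enteroendocrine markers were called lower (66.7% called). Their mean levels were 5.56 to 5.76 on the CKIα KO/p53 KO arrays against 6.87 to 7.07 on the CKIα Het/p53 KO arrays. Their median difference was -1.40. The 5 Paneth cell markers went the other way there, with 1 called higher, 0 lower and a median difference of 0.48. In CKIα KO/p21 KO against CKIα Het/p21 KO mice the median difference was -1.34 for goblet, -1.45 for enteroendocrine and -0.05 for Paneth markers. The part of these shifts in the Cdkn2b difference was not tested.

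Genes with the pattern most like that of each member were found by correlation over arrays, as a description. The arrays share normalization and the same group differences, and genes were searched among all those tested. For Cdkn1a, over the 8 arrays of the groups that keep p21, the closest were Abhd4 (Pearson r = 0.983, Spearman rho = 0.929), Thnsl2 (0.969 and 0.905), Cdip1 (0.958 and 0.927), Snai3 (0.957 and 0.929) and Trav19 (0.955 and 0.833). For Rab44 over 12 arrays they were Miga1 (r = 0.954, rho = 0.739) and H4c9 (r = 0.872, rho = 0.755). For Cdkn2b they were Ccl2 (r = 0.914, rho = 0.897) and Pdzd3 (r = 0.906, rho = 0.774), and for Cdkn1c Cep20 (r = 0.939, rho = 0.930) and Ndufb8 (r = 0.917, rho = 0.909). The closest genes were Ubr1 and Lrrtm3 for Cdkn1b, Eaf2 and Dlx1as for Cdkn2a, Slc45a3 and Ache for Cdkn2c, and Rnf144a and Zfp945 for Cdkn2d. Several of these genes were dim with narrow ranges, such as Snai3 (4.01 to 4.53) and Trav19 (3.86 to 4.40) on the 8 arrays. On the 12 arrays so were Ccl2 (3.96 to 4.39), Lrrtm3 (3.87 to 4.22), Eaf2 (3.40 to 3.73) and Dlx1as (3.68 to 4.24). Their signal may be background, so their likeness is not read as shared expression.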

How the data were processed

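Total RNA of the samples named as enterocytes was hybridized to Affymetrix arrays. Per the labels' protocols, the authors extracted intensities with Affymetrix Expression Console 1.1 by RMA Sketch and normalized them by the median; the deposited values were read as log2 values, the base being inferred from array medians of 4.96 to 5.12. Of 35556 probe sets, 21789 carried 1 gene symbol, 1621 several and 12146 none; only single-symbol probe sets and that of Cdkn1a were used. A gene was tested if at least 2 of 12 arrays exceeded the array's 25th percentile.

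The 12 arrays were fitted with limma 3.58.1 in R 4.3.3, with 1 mean per group and 6 residual degrees of freedom. Two-sided p-values of 7 comparisons and 2 differences between effects were adjusted by Benjamini-Hochberg within each, and calls were made below 0.05. Errors are standard errors of the fit. Replicates are biological per the labels, but Xist lay at 3.15 to 3.94 on all replicate 1 arrays and 8.91 to 10.1 on all replicate 2 arrays, so the spread between replicates includes sex. Correlations of same-numbered deviations ran from -0.162 to 0.248 over 15 pairs of groups, 5 of them over 0.1, so the numbers were not taken to mark shared animals or litters, although they part the sexes in every group; a fit with the number as a block was an alternative. The number of arrays limits the precision.

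All 8 genes' levels are given; differences are printed for Cdkn1a always and for others at an unadjusted p under 0.05. Pathway lists are described by counts and up to 4 genes of smallest p. The genes, lists and rules were chosen with earlier results of these data known. The 7 alternatives and 12 fits without 1 array were run, and the test was tried on simulated data. RefSeq (GRCm38.p6) gave gene order and promoters.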

Additional observations from a re-analysis of the deposited data

Results flagged for a closer look

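The array outside the 6 groups, whose title numbers it 3 among CKIα KO/p53 KO mice while its genotype and source labels read CKI KO, had Cdkn1a at 10.04, above both CKIα Het arrays (9.12 and 9.35). Rab44 was at 5.23 on it, above the CKIα Het arrays at 5.21 and 4.97 by less than their own gap.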

How the results depend on the processing

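Of 495 values of 26 differences of 6 of the genes (all but Cdkn2a and Cdkn2d) under the alternatives, 472 kept their direction and side of the threshold, 9 lost the call, 13 gained one and 1 reversed. The Cdkn1a difference between the CKIα effects with and without p21 ran from -0.90 to 0.13 when each array was left out, the positive value without CKIα KO replicate 2. In CKIα KO/p53 KO against CKIα Het/p53 KO mice, 1 of the 8 genes was called, but 2 under a further quantile normalization, 2 with array weights and 0 with all probe sets fitted, and 0 to 2 when each array was left out. In CKIα KO/p53 KO against CKIα KO mice 0 were called, but 1 under quantile normalization, 1 with robust moderation and 1 with the replicate number as a block (Cdkn2b, adjusted p = 0.0394), and 0 to 2 when each array was left out. That block changed no other count of called genes among the 8. In CKIα Het/p21 KO against CKIα Het mice 2 were called, and 0 to 2 when each array was left out. With 2 arrays a group, differences of the size seen for Cdkn1a between CKIα KO and CKIα Het could not be told from replicate spread.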
